A study of Mus musculus with 31 samples.

Results

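The genes that covary between liver and fat were sought among 5986 genes detected in both tissues, of 16593 genes with a probe on the array. Members were chosen by title: a liver array and an adipose array that carry the same number were taken as a pair, which gave 15 pairs (30 of the 31 arrays), 7 from mice under intermittent hypoxia (IH) and 8 from mice under normoxia (NO). For each gene the log2 intensity was centred within tissue and exposure, so that the mean effect of IH was removed, and the deviations in liver were correlated with those in adipose tissue over the 15 pairs. A gene was called when its p-value, from 100000 shuffles of the pairing within each exposure and adjusted over all 5986 genes by the Benjamini-Hochberg method, was under 0.05.

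All mice were male C57BL/6JRj, an inbred strain, aged 16 weeks and housed in groups. The IH group breathed air that alternated rapidly between 5% and 21% oxygen, for 8 h a day during the sleeping period over 14 days, and the NO group received air at the same switching rhythm. Tissues were taken on the day after the last exposure, and the RNA of each sample was hybridised to 1 Illumina MouseRef-8 v2.0 array. The labels give the shared number but do not state that it is the animal, and they name no cage, litter or order of killing. All NO livers lay on chip 1 and the IH livers on chips 2 and 3, so exposure and chip cannot be told apart. Adipose NO arrays lay on chips 3 and 4 and adipose IH arrays on chips 5 and 6, so the same holds in adipose tissue.

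The organs of a body share blood, hormones, the daily clock, circulating cells and a genome, and a transcript that differs between mice for any of these reasons can be high or low in several organs at once. Such shared deviations are known for immediate early genes, which respond within minutes to handling, feeding or anaesthesia, for clock genes, for genes of blood cells, and for genes that carry an inherited variant near the transcript itself. In bulk tissue, fewer cells of a type and less RNA per cell cannot be told apart.

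The tissues were first checked on their markers. All 11 hepatocyte genes were detected in every liver array, against 3 to 6 of them in adipose arrays, and all 10 adipocyte genes were detected in every adipose array, against 2 to 4 in liver arrays. The summed adipocyte level was lowest in adipose array IH 19 (log2 15.16, against 16.54 to 17.08 in the other adipose arrays). Genes of epididymis and testis, organs that lie against this fat pad, stood out in 3 adipose arrays of the pairs: 11 of 12 were detected in IH 19, 8 in IH 16 and 7 in NO 4, against 0 to 3 in the other 12 paired adipose arrays and 0 to 2 in liver arrays. Their summed level was log2 17.24 in IH 19, 16.71 in IH 16 and 12.99 in NO 4, against 10.54 to 11.99 in the other 12. Spag11b, an epididymal antimicrobial peptide gene, spanned 6.86 to 15.1 in IH adipose arrays and 6.80 to 6.93 in NO adipose arrays. The counts of called genes and of the main gene lists are therefore also given without pairs 4, 16 and 19, a setting added after the data were seen.

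The largest group of called genes that moved together held Zfp36, Per1, Ppp1r15a, Errfi1 and Coq10b, and the class II genes H2-Aa and H2-Eb1 also moved together, so a promoter of each is shown here. Per1 and Errfi1 had 2 windows each. The window shown was picked by its matches, to the E-box for Per1 and to the cAMP element for Errfi1, so these matches are set by the choice. Sequences are RefSeq promoters of GRCm38.p6, 250 bases before to 50 after the start, 5′ to 3′ on the gene's strand, and capitals mark any match to the motifs searched on both strands. These were the E-box CACGTG, the D-box TTATGTAA or TTACGTAA, the ROR element TAGGTCA, the palindromic glucocorticoid response element, the cAMP element TGACGTCA, the interferon-stimulated element and the Y box CTGATTGG (added after the class II promoters had been read).
Per1 (chr11:69098699-69098998, plus strand): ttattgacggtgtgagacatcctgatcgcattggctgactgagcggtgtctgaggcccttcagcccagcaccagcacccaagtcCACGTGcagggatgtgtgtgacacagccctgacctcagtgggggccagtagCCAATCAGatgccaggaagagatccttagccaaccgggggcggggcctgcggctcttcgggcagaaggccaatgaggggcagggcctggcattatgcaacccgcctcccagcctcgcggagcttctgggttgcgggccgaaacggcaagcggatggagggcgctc
Coq10b (chr1:55052520-55052819, plus strand): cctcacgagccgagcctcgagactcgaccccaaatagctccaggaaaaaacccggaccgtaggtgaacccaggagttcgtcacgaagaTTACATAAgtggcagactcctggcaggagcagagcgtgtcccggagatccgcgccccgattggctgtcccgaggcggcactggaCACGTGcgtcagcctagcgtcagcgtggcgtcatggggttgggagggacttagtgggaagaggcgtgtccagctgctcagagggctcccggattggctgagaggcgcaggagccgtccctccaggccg
Errfi1 (chr4:150854820-150855119, plus strand): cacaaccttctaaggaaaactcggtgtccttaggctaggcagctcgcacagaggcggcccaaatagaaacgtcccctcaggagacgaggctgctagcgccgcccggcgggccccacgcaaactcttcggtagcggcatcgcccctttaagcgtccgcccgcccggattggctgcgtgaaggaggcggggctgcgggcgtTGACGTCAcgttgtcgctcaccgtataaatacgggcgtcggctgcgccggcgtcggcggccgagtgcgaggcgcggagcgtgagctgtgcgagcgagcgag
Ppp1r15a (chr7:45526219-45526518, minus strand): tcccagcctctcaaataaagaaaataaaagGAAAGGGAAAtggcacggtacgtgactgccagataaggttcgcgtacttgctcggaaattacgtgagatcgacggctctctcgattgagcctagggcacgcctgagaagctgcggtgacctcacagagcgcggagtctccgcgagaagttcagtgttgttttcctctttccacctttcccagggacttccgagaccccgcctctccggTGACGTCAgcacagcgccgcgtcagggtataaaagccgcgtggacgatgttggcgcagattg
Zfp36 (chr7:28379179-28379478, minus strand): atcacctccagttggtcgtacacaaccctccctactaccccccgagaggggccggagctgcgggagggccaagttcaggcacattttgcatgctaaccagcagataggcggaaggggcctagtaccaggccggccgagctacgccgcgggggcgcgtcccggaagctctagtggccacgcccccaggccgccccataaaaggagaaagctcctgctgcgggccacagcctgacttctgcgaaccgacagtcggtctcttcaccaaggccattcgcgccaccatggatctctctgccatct
H2-Aa (chr17:34287774-34288073, minus strand): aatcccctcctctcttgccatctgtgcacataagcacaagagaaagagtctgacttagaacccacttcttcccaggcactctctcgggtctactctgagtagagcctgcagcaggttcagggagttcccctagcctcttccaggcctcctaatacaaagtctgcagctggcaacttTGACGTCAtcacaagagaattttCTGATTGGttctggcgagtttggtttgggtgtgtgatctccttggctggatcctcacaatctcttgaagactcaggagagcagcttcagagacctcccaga
H2-Eb1 (chr17:34305617-34305916, plus strand): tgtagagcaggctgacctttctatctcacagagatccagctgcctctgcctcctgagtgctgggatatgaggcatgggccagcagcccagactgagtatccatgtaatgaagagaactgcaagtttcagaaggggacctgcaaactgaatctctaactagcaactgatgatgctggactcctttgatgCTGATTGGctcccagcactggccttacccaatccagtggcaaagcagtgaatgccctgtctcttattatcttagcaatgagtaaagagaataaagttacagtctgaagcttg

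In these windows Per1 held an E-box and a Y box, Coq10b an E-box and a D-box, Errfi1 a cAMP element, and Ppp1r15a a cAMP and an interferon element. H2-Aa held a cAMP element and a Y box, H2-Eb1 a Y box, and the Zfp36 window held none of the 7 motifs. RefSeq gave promoters for 49 of the 57 positively called genes, 63 windows in all, since a gene can have several starts. An E-box stood in 7 of the 63 windows, against 10.7% of the 6397 promoters of tested genes and 7.15% of all 32851 promoters. A cAMP element stood in 5 windows (3.19% of tested, 1.79% of all), a Y box in 6 (5.17% and 4.1%), an interferon element in 2 (2.97% and 3.44%) and a D-box in 1 (0.75% and 1.06%). No window held the ROR element (1.92% and 2.61%) or the glucocorticoid element (0.0156% and 0.0578%). A match is a description of letters and not of a bound site.

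Over the 15 pairs, 57 genes correlated positively between liver and adipose tissue (0.952% of the 5986 tested) and 2 negatively (0.0334%). At an unadjusted permutation p of at most 0.01 the counts were 214 positive (3.58%) and 39 negative (0.652%). When the pairing was shuffled 100 times, the same threshold gave a median of 28 positive genes (11 to 96), with no shuffle reaching 214, and a median of 27 negative genes (11 to 73), with 17 shuffles reaching 39. The excess was thus on the positive side. The median r over all genes was 0.054, inside the range of the shuffled medians (-0.0753 to 0.0952), and 3405 of 5986 genes had an r above 0.

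**Figure D1:**
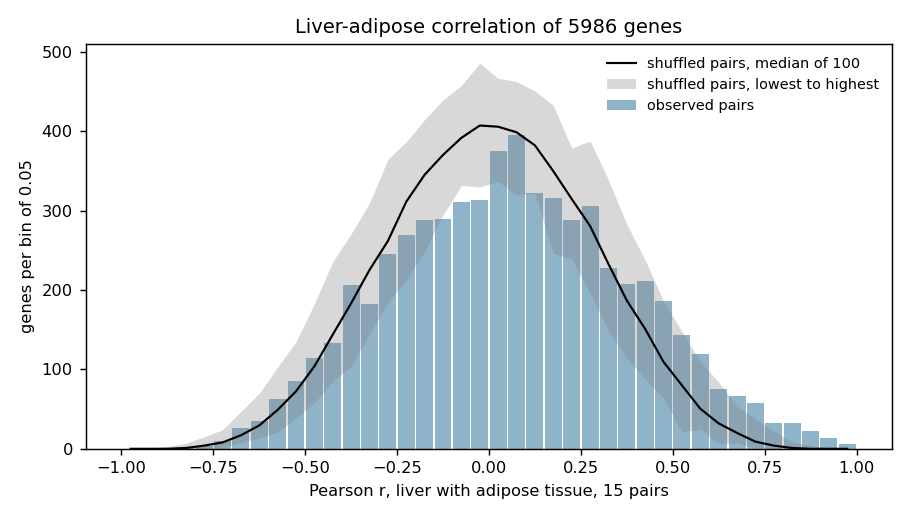
Number of genes per bin of Pearson's r between liver and adipose deviations over the 15 pairs (bars), with the median (line) and range (grey) of 100 shuffled pairings. The bars leave the grey range at the right end, where the 57 positively called genes lie between 0.687 and 0.97.

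Among the 57 genes r had a median of 0.87 (0.687 to 0.97). Within the 7 IH pairs alone the median r was 0.909 (0.614 to 0.99), and within the 8 NO pairs 0.91 (0.61 to 0.996). Every one of these genes thus had the same sign in both exposures. The same pairs made the calls, so the shared sign is largely set by the selection. Without the 2 pairs farthest from the liver median of each gene, r ranged from 0.592 to 0.961 (median 0.835). Called genes varied more between mice than the rest: the median SD of the centred log2 values was 0.475 in liver and 0.473 in adipose tissue, against 0.201 and 0.213 over all genes. Their mean levels were lower, with medians of log2 8.49 in liver and 8.66 in adipose tissue, against 9.06 and 9.11 over all genes. The genes just inside the threshold were Errfi1, Mrps27 and Sub1 (adjusted p = 0.0446), and those just outside were Nt5e and Fgfr1op2 (adjusted p = 0.05) and Acaa1b (adjusted p = 0.0542, negative r).

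The count depended on the pairs and on the setting. Without pairs 4, 16 and 19, 16 genes were called positive, 9 of them among the 57, and 1 negative, while all 57 kept a positive r (median 0.884) and 56 had a permutation p of at most 0.01. At that unadjusted threshold these 12 pairs gave 196 positive and 62 negative genes. With the chip of each tissue as a block the permutation test called 0 genes (smallest adjusted p = 0.156), with 181 positive and 10 negative at an unadjusted p of at most 0.01. Shuffling within chips allows few pairings, and the smallest unadjusted permutation p was 0.00011. Calls after adjustment were thus hard to reach, and the 0 is no measure of the chip. All 57 kept a positive r there too (median 0.878), 48 with a permutation p of at most 0.01. With 1 pair left out the positive count was 36 without pair 2, 33 without pair 4 and 37 without pair 18, and within 1.5 times 57 otherwise.

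The first kind of called gene stood at separate levels. In 58 genes the widest empty gap in the log2 values, with at least 2 pairs on each side, was at least 0.5 in both tissues, and in 9 of them the same pairs lay above the widest gap in liver and in adipose tissue. With any gap of that size in place of the widest there were 10 genes, the tenth being Atp6v1d. None of the 9 was parted by exposure, and the 9 partings were all different. Of the 9 genes, 6 were called (Lars2, Cbwd1, Epm2aip1, Csrp1, Aldh1a7 and Tomm22), and Psmd8, Cish and Casp9 were not. Since such values fall into separate clusters, no pooled correlation is given for them. The gaps, and each r within an upper or lower level, used log2 values that were not centred by exposure. A difference between IH and NO thus enters these r, unlike the other r given here. Probes not detected had a median of log2 6.95 and a 95th percentile of 7.29, which places the lower level of some of these genes at the background of the array.

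Lars2, which encodes the mitochondrial leucyl-tRNA synthetase, was high in pairs 17, 18, 21 and 22 of IH and in pairs 2, 3, 6 and 7 of NO. Its liver values were 7.89 to 8.74 in those 8 pairs and 6.86 to 7.21 in the other 7, and its adipose values were 8.20 to 9.13 and 6.94 to 7.32. The same 8 arrays were thus on the upper side in both tissues with gaps of 0.678 and 0.883, and the lower side was at background (permutation p = 3e-05, adjusted p = 0.018). Among the 8 upper pairs alone r was 0.766, and among the 7 lower pairs -0.459.

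Epm2aip1, which encodes a partner of the laforin glycogen phosphatase and lies on the same chromosome 9 as Lars2, was high in IH pairs 17, 18, 19, 21 and 22 and NO pairs 2, 3, 5 and 6. Its upper level was 8.01 to 8.89 in liver and 7.99 to 8.88 in adipose tissue, against a lower level of 6.92 to 7.11 in liver and 6.92 to 7.12 in adipose tissue (adjusted permutation p = 0.0184). Within the 9 upper pairs r was 0.717 and within the 6 lower pairs -0.402. The parting of Epm2aip1 resembled that of Lars2 in part, with a correlation of 0.519 between the pair scores of the genes. The other probes kept for Epm2aip1 did not follow this parting (r = 0.473 and -0.18, permutation p = 0.0997 and 0.445).

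Cbwd1, which encodes a protein of the COBW family with a GTP-binding domain, was low in IH pair 21 and NO pairs 1 and 8, at 6.92 to 6.96 in liver and 6.87 to 6.96 in adipose tissue. The other 12 pairs lay at 7.86 to 8.70 in liver and 7.86 to 8.84 in adipose tissue, and among them r was still 0.851 (adjusted permutation p for all pairs = 0.0171). Tomm22, a receptor of the mitochondrial import complex, was high in IH pairs 17 and 20 and NO pairs 1 and 8, at 9.45 to 9.97 in liver and 9.74 to 10.0 in adipose tissue, and the other 11 pairs lay at 7.87 to 8.36 and 7.16 to 8.60 (adjusted p = 0.0259). Within the 11 lower pairs the uncentred r was 0.0917. Their adipose values differed by exposure, at 7.16 to 7.27 in IH and 8.02 to 8.60 in NO, so this r is no measure of the relation within an exposure.

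Csrp1, a LIM domain protein of smooth muscle and other contractile cells, had the widest gap in adipose tissue among the 9 genes. It was low in IH pairs 18, 19, 20 and 21 and NO pair 5, at 7.00 to 7.20 in adipose tissue and 6.88 to 7.15 in liver, and the other 10 pairs lay at 10.8 to 12.48 in adipose tissue and 7.90 to 9.18 in liver. The gap was 3.61 in adipose tissue and 0.744 in liver, and within the 10 upper pairs r was 0.84 (adjusted permutation p for all pairs = 0.0184). Aldh1a7, an aldehyde dehydrogenase of the retinal group, was at background in IH pair 18 and NO pair 2 (6.89 and 7.00 in liver, 6.99 and 6.93 in adipose tissue). In the other 13 pairs it reached 9.82 to 11.43 in liver and 7.70 to 10.35 in adipose tissue, with an r of 0.705 among them (adjusted p = 0.0239).

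Of the 3 genes that did not pass, Psmd8, a subunit of the proteasome's regulatory particle, was low in IH pairs 16 and 17 and NO pairs 4 and 8. Its lower level was 8.58 to 9.14 in liver and 7.22 to 8.24 in adipose tissue, against 10.57 to 10.9 and 10.34 to 11.04 in the other 11 pairs (permutation p = 0.00148, adjusted p = 0.0904). Within those 11 r was 0.233. Cish, a feedback inhibitor of growth hormone and cytokine signalling, was low in IH pair 21 and NO pairs 1, 5, 6 and 7, at 7.08 to 8.23 in liver and 7.78 to 8.80 in adipose tissue, against 9.37 to 12.15 and 9.45 to 12.14 in the other 10 pairs (adjusted permutation p = 0.0975). Casp9, the initiator caspase of the mitochondrial death pathway, was low in NO pairs 4 and 8, at 8.61 and 8.73 in liver and 8.82 and 8.86 in adipose tissue, against 9.39 to 9.92 and 9.48 to 10.39 in the others (adjusted permutation p = 0.287). Genotype was not measured, and its part in these levels was not tested.

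**Figure D2:**
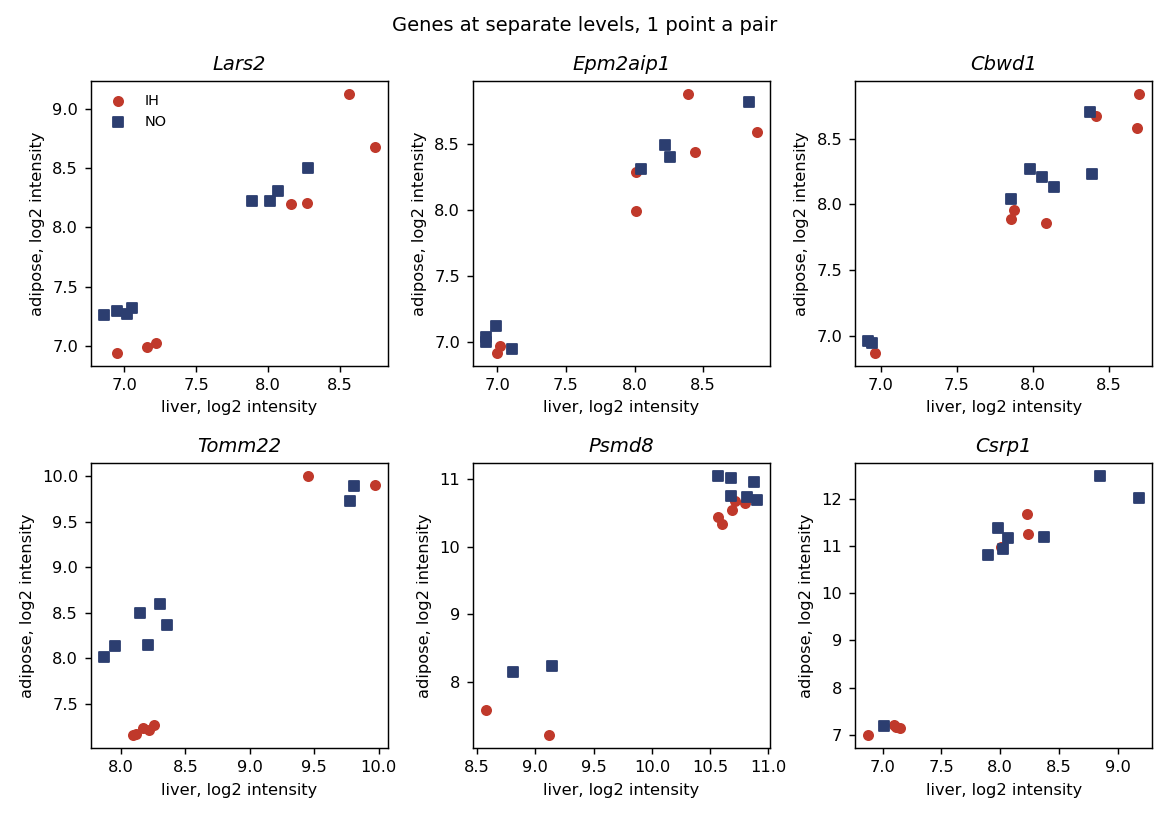
Log2 intensity in adipose tissue (vertical axis) against liver (horizontal axis) for 6 of the genes at separate levels, 1 point a pair, with IH and NO pairs in separate symbols. Each gene shows an upper and a lower set of pairs, both of which hold IH and NO pairs. The adipose gap of Csrp1 is 3.61 and that of Lars2 0.883.

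Of the other genes with the highest r, Atp6v1d alone had such a gap in the values that were not centred by exposure. Rpusd4, a mitochondrial pseudouridine synthase, ranged over 7.75 to 8.70 in IH livers and 7.92 to 8.82 in NO livers, and over 8.26 to 9.45 in IH and 8.09 to 9.05 in NO adipose tissue. Of the IH pairs, 19 and 20 were lowest in both tissues. Its r was 0.95 (permutation p = 7e-05, adjusted p = 0.021), with a rho of 0.829 (permutation p = 0.00056), 0.97 in IH and 0.929 in NO pairs, and 0.914 without the 2 farthest pairs. Tmem14c, a mitochondrial carrier needed for haem synthesis, ranged over 11.42 to 12.49 in IH and 11.50 to 12.60 in NO livers, and 11.04 to 12.08 in IH and 11.17 to 12.22 in NO adipose tissue, and IH pair 16 was lowest in both tissues. Its r was 0.948 (permutation p = 1e-05, adjusted p = 0.0171) and its rho 0.87 (permutation p = 4e-05), with 0.958 in IH, 0.941 in NO and 0.944 without the 2 farthest pairs. The other kept probes of Tmem14c had an r of 0.336 and 0.383, neither past the threshold.

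Prkag2, a gamma subunit of the energy sensor AMPK, was near background in several livers. Its liver values were 7.15, 7.44 and 8.06 (lowest, median and highest) in IH and 7.25, 8.39 and 8.77 in NO, and its adipose values were 6.98, 7.08 and 7.71 in IH and 7.07, 8.72 and 9.53 in NO. NO pairs 5, 6 and 7 were low in both tissues and NO pairs 1, 2, 3 and 4 high. Its r was 0.944 (permutation p = 3e-05, adjusted p = 0.018) and its rho 0.968 (permutation p = 3e-05), with 0.99 in IH, 0.971 in NO and 0.914 without the 2 farthest pairs. Its score moved with that of Ccng2, an atypical cyclin under FOXO control in the FOXO list (r = 0.849, permutation p = 0.00023, adjusted p = 0.0306, rho = 0.893, permutation p = 0.00018, and 0.853 without the 2 farthest pairs). Ccng2 was detected on 7 livers and 10 adipose arrays, and its IH adipose values of 6.93 to 7.49 were near background. With the chip of each tissue as a block its r was 0.548 (permutation p = 0.0572). Of the 8 FOXO list genes tested, 4 had a positive r (median -0.0095) and 2 a permutation p of at most 0.01 (25%). Both Prkag2 and Ccng2 lie on chromosome 5.

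Abhd16a, a phosphatidylserine lipase encoded in the MHC region, was lowest in IH pairs 21 and 22 and NO pairs 1 and 4 in both tissues. It spanned 9.72 to 10.47 in IH livers and 9.66 to 10.42 in NO livers, and 9.94 to 11.03 in IH and 9.83 to 11.36 in NO adipose tissue (r = 0.943, permutation p = 2e-05, adjusted p = 0.0171, rho = 0.929, permutation p = 2e-05). Within exposures r was 0.984 in IH and 0.922 in NO, and without the 2 farthest pairs it was 0.922. Brat1, an activator of the DNA damage kinase ATM, rested more on 1 pair: IH pair 16 was at 7.01 in liver and 6.89 in adipose tissue, below every other pair in both. Its r was 0.941 (permutation p = 0.00014, adjusted p = 0.0259) with a rho of 0.886 (permutation p = 9e-05), 0.953 in IH, 0.916 in NO and 0.83 without the 2 farthest pairs.

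Both called chemokine genes were in this set. Ccl27a, a skin homing chemokine whose locus also yields a nuclear form, was low in IH pair 18 and NO pairs 1, 5 and 7 in both tissues. It ranged over 6.95 to 9.21 in IH and 6.99 to 9.33 in NO livers, and 7.52 to 9.20 in IH and 7.60 to 9.01 in NO adipose tissue (r = 0.936, permutation p = 2e-05, adjusted p = 0.0171, rho = 0.914, permutation p = 5e-05). Its r was 0.899 in IH, 0.971 in NO and 0.898 without the 2 farthest pairs, and a further probe of Ccl27a gave 0.767 (permutation p = 0.00156). Ccl25, a chemokine that draws T cells to thymus and gut, ranged over 7.36 to 8.95 in IH and 7.04 to 9.20 in NO livers, but stayed at 6.85 to 7.71 in IH and 6.98 to 8.05 in NO adipose tissue, where it was detected on 9 of 16 arrays. Its r was 0.908 (permutation p = 7e-05, adjusted p = 0.021) and its rho 0.951 (permutation p = 1e-05), with 0.904 in IH, 0.911 in NO and 0.854 without the 2 farthest pairs.

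Atp6v1d, a subunit of the proton pump of lysosomes, was lowest in IH pairs 21 and 22 and in NO pair 1 in both tissues, below gaps of 0.617 in liver and 0.805 in adipose tissue. Its liver values were 8.64 to 10.23 in IH and 8.62 to 10.18 in NO, and its adipose values 8.06 to 11.48 in IH and 9.01 to 10.63 in NO (adjusted permutation p = 0.0171). Within the 12 upper pairs r was 0.827. Atg3, the conjugating enzyme of autophagosome formation, and Timmdc1, an assembly factor of respiratory complex I, lie on chromosome 16 and were both low in NO pairs 2 and 8. In adipose tissue Atg3 had 7.76 and 7.66 in these pairs and 8.59 in the next NO pair, and IH values of 7.84 to 8.72 lay in between, so no gap was counted. Atg3 was at 7.58 and 7.66 at its lowest in NO liver and NO adipose tissue, against highest NO values of 9.80 and 9.61 (r = 0.914, permutation p = 0.00016, adjusted p = 0.0259, rho = 0.929, permutation p = 1e-05, and 0.793 without the 2 farthest pairs). Timmdc1 had an r of 0.899 (permutation p = 0.00016, adjusted p = 0.0259, rho = 0.832, permutation p = 0.00027, and 0.887 without the 2 farthest pairs). The pair scores of the genes correlated at 0.852.

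Of the other genes among the 20 with the highest r, Rps3a1 encodes a protein of the small ribosomal subunit. Among the IH pairs it was highest in 21 and 22 in both tissues (r = 0.914, permutation p = 7e-05, adjusted p = 0.021, rho = 0.861, permutation p = 0.00032, and 0.85 without the 2 farthest pairs), and its probe may read processed copies of the gene. Znhit3, an assembly factor of small nucleolar RNA particles, spanned only 7.94 to 8.71 in IH and 8.08 to 8.78 in NO livers (r = 0.907, permutation p = 0.00019, adjusted p = 0.0277, rho = 0.711, permutation p = 0.00556, and 0.897 without the 2 farthest pairs). Wdr46, a nucleolar scaffold protein encoded in the MHC region, was detected on 9 livers and 9 adipose arrays (r = 0.898, permutation p = 6e-05, adjusted p = 0.021, rho = 0.871, permutation p = 5e-05, and 0.889 without the 2 farthest pairs). A further probe of Wdr46 gave an r of 0.907 (permutation p = 8e-05).

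The MHC genes present peptides to T cells, class I on nearly all cells and class II on macrophages, dendritic cells and B cells. Of the 12 listed MHC genes tested, 5 had a positive r at a permutation p of at most 0.01 (41.7%, against 3.58% of all genes) and 3 were called, and the list's median r was 0.27. H2-Eb1, a class II beta chain, had 6.88, 7.51 and 8.48 (lowest, median and highest) in IH livers and 6.95, 7.83 and 8.28 in NO livers. In adipose tissue it had 7.42, 9.93 and 12.25 in IH and 7.02, 10.01 and 10.93 in NO. IH pair 20 and NO pair 2 were lowest in their groups in both tissues, near background, and IH pair 22 was highest. The r of H2-Eb1 was 0.921 (permutation p = 4e-05, adjusted p = 0.0184) and its rho 0.829 (permutation p = 0.00052), with 0.919 in IH, 0.925 in NO and 0.835 without the 2 farthest pairs.

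H2-Aa, the class II alpha chain of the other isotype, followed H2-Eb1 closely, with a correlation of 0.931 between their pair scores. It had 7.04, 7.78 and 8.84 in IH and 6.95, 7.79 and 8.73 in NO livers, and 7.09, 8.02 and 9.80 in IH and 7.35, 10.27 and 11.36 in NO adipose tissue, again lowest in IH pair 20 and NO pair 2. Its r was 0.841 (permutation p = 0.00031, adjusted p = 0.038) and its rho 0.604 (permutation p = 0.0217), with 0.745 without the 2 farthest pairs. The partner chain H2-Ab1 (r = 0.182) and the invariant chain Cd74 (r = 0.181), which class II complexes need, did not pass (permutation p = 0.519 and 0.528). The probes of H2-Aa and H2-Eb1 each read 1 stretch of a polymorphic gene.

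Among class I genes, H2-T10 was low in IH pairs 21 and 22 and NO pairs 1 and 7. It had 6.88, 8.57 and 9.33 in IH and 6.99, 8.77 and 9.70 in NO livers, and 7.11, 8.62 and 10.11 in IH and 7.27, 8.81 and 9.20 in NO adipose tissue (r = 0.84, permutation p = 5e-05, adjusted p = 0.02, rho = 0.725, permutation p = 0.00523, and 0.677 without the 2 farthest pairs). H2-Q7 and H2-T23 had an r of 0.743 and 0.698 without passing the adjusted threshold (adjusted permutation p = 0.121 and 0.146), and the classical genes H2-K1 and H2-D1 had -0.442 and 0.114. Class I genes are near copies of each other, and their probes may share signal. B cell genes, which could bring class II RNA, were not detected in both tissues: 0 of 13 listed passed the filter. C2, the complement protease encoded in the same region, was called as well (r = 0.87, permutation p = 0.00021, adjusted p = 0.0292, rho = 0.895, permutation p = 0.00033, and 0.829 without the 2 farthest pairs). Chromosome 17 held 8 called genes of 314 tested. Chromosome 1 held 8 of 294, among them the negatively correlated Nuak2 and Gpr1. Over all genes tested 0.952% were called positive and 0.0334% negative.

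**Figure D3:**
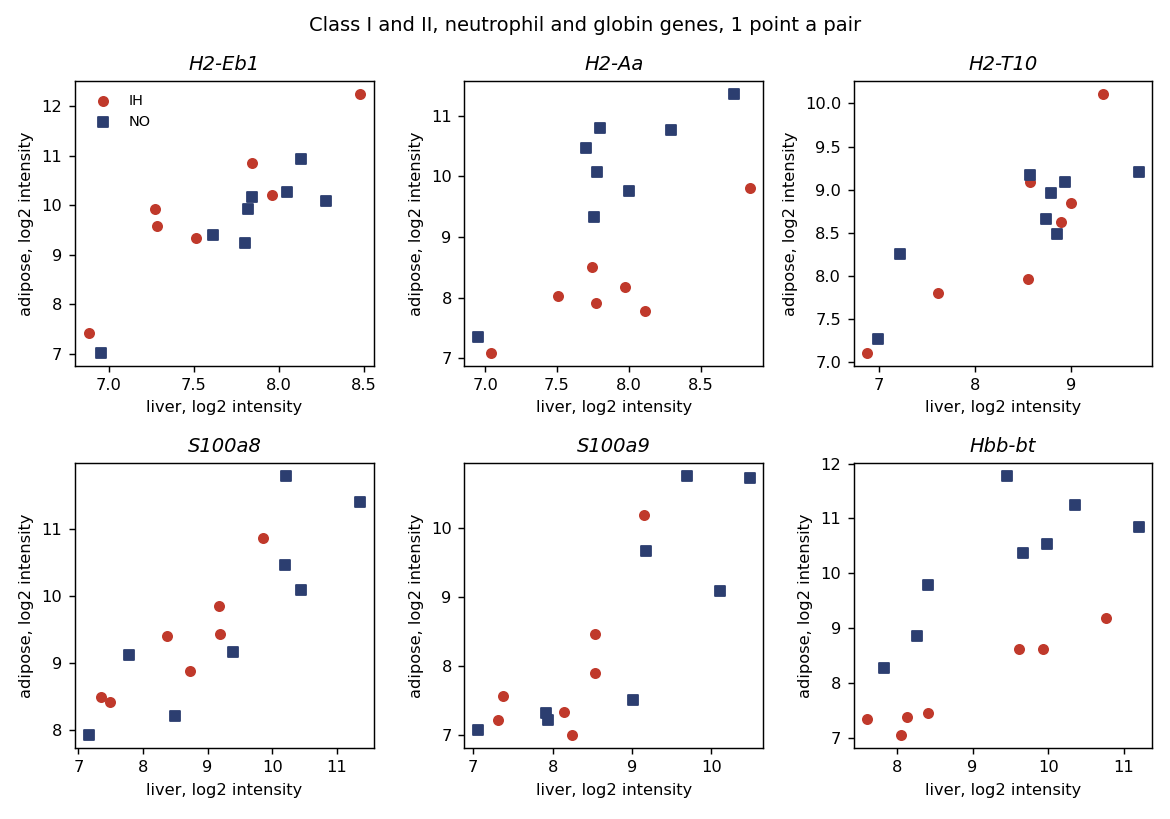
Log2 intensity in adipose tissue (vertical axis) against liver (horizontal axis) for class II, class I, neutrophil and globin genes, 1 point a pair, IH and NO pairs in separate symbols. H2-Eb1 and H2-Aa have IH pair 20 and NO pair 2 at the lower left, and the called genes among the 6 have r from 0.839 to 0.921.

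Immediate early genes are transcribed within minutes of a stimulus, without new protein. All 12 listed genes that were tested had a positive r, the median was 0.71 (0.054 over all genes), and 7 of 12 had a permutation p of at most 0.01 (58.3%, against 3.58% of all genes), though Zfp36 alone was called. Without pairs 4, 16 and 19 the median was 0.725, with 6 of 12 at that threshold and 11 of 12 above 0. Zfp36, an RNA-binding protein that destabilises cytokine messages, had 10.39, 10.62 and 12.58 (lowest, median and highest) in IH and 9.89, 10.60 and 12.56 in NO livers. In adipose tissue it had 10.25, 11.06 and 13.27 in IH and 10.13, 10.99 and 13.09 in NO. Its r was 0.826 (permutation p = 0.0002, adjusted p = 0.0285) and its rho 0.807 (permutation p = 0.00033), with 0.882 in IH, 0.788 in NO and 0.741 without the 2 farthest pairs.

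The same pairs were high across the group. IH pairs 19 and 20 and NO pairs 4 and 8 had mean deviations of the 12 genes of 1.03, 0.97, 0.84 and 1.06 in liver and of 0.56, 1.05, 0.13 and 1.22 in adipose tissue. IH pair 18 (0.38 and 0.58) and NO pair 5 (0.49 and 0.23) were above 0 in both tissues, and IH pairs 16, 17, 21 and 22 and NO pairs 1, 2, 3 and 6 were below 0 in both. NO pair 7 alone differed in sign between the tissues, at -0.56 in liver and 0.32 in adipose tissue. Fos, a subunit of the AP-1 transcription factor, reached 11.55 and 11.54 in the highest IH and NO livers, against medians of 7.90 and 8.71, and 12.00 and 11.98 in adipose tissue, against 8.64 and 10.02. It had an r of 0.788 (permutation p = 0.00183, adjusted p = 0.0975, rho = 0.793, permutation p = 0.00111, and 0.681 without the 2 farthest pairs). Egr1, a zinc finger transcription factor, had an r of 0.821 (permutation p = 0.00126, adjusted p = 0.0835, rho = 0.771, permutation p = 0.00179, and 0.746 without the 2 farthest pairs). Of the high pairs, 4 and 19 are among those whose adipose arrays read epididymis genes. Without these and pair 16 the r of Zfp36 was 0.865, of Fos 0.846 and of Egr1 0.772.

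Zfp36 clustered with 4 further called genes, the largest group among the 57. Ppp1r15a directs a phosphatase to the initiation factor eIF2 and ends the integrated stress response. It had 7.76, 8.21 and 8.80 in IH and 7.74, 8.10 and 9.05 in NO livers, and 8.12, 8.53 and 9.25 in IH and 7.61, 7.99 and 8.67 in NO adipose tissue, with IH pairs 18, 19 and 20 and NO pairs 4 and 8 highest in both. Its r was 0.917 (permutation p = 8e-05, adjusted p = 0.0224) and its rho 0.811 (permutation p = 0.00048), with 0.954 in IH, 0.911 in NO and 0.886 without the 2 farthest pairs. Errfi1, a feedback inhibitor of the EGF receptor and a glucocorticoid target, had an r of 0.825 (permutation p = 0.00044, adjusted p = 0.0446, rho = 0.629, permutation p = 0.0174, and 0.686 without the 2 farthest pairs). Coq10b, a coenzyme Q binding protein of mitochondria, had an r of 0.858 (permutation p = 9e-05, adjusted p = 0.0224, rho = 0.832, permutation p = 0.00047, and 0.811 without the 2 farthest pairs), while a further probe of it had 0.507 (permutation p = 0.0595).

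Per1, a repressor of the circadian clock that glucocorticoids also induce, was the fifth. It had 6.98, 8.52 and 10.12 in IH and 6.85, 7.78 and 9.62 in NO livers, and 8.97, 9.99 and 10.98 in IH and 8.66, 9.28 and 11.00 in NO adipose tissue. IH pairs 19 and 20 and NO pairs 4 and 8 were again among the highest in both tissues. Its r was 0.893 (permutation p = 0.00014, adjusted p = 0.0259) and its rho 0.907 (permutation p = 8e-05), with 0.829 in IH, 0.963 in NO and 0.873 without the 2 farthest pairs, and a further probe of Per1 gave 0.841 (permutation p = 0.00048). Of 14 clock genes tested, 13 had a positive r (median 0.37) and 2 a permutation p of at most 0.01 (14.3%), Per1 and the output factor Dbp. Dbp, whose level swings widely over the day, had an r of 0.722 (permutation p = 0.00875, adjusted p = 0.223, rho = 0.707, permutation p = 0.00924), but 0.384 without the 2 farthest pairs. The core activator Clock had 0.654 (permutation p = 0.0193). In the glucocorticoid list 13 of 15 genes had a positive r (median 0.31) and 3 a permutation p of at most 0.01 (20%), Per1, Errfi1 and the phosphatase Dusp1 (r = 0.729, adjusted p = 0.146). The time of killing of each mouse is not given in the sources used here, and its part in these values was not tested.

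**Figure D4:**
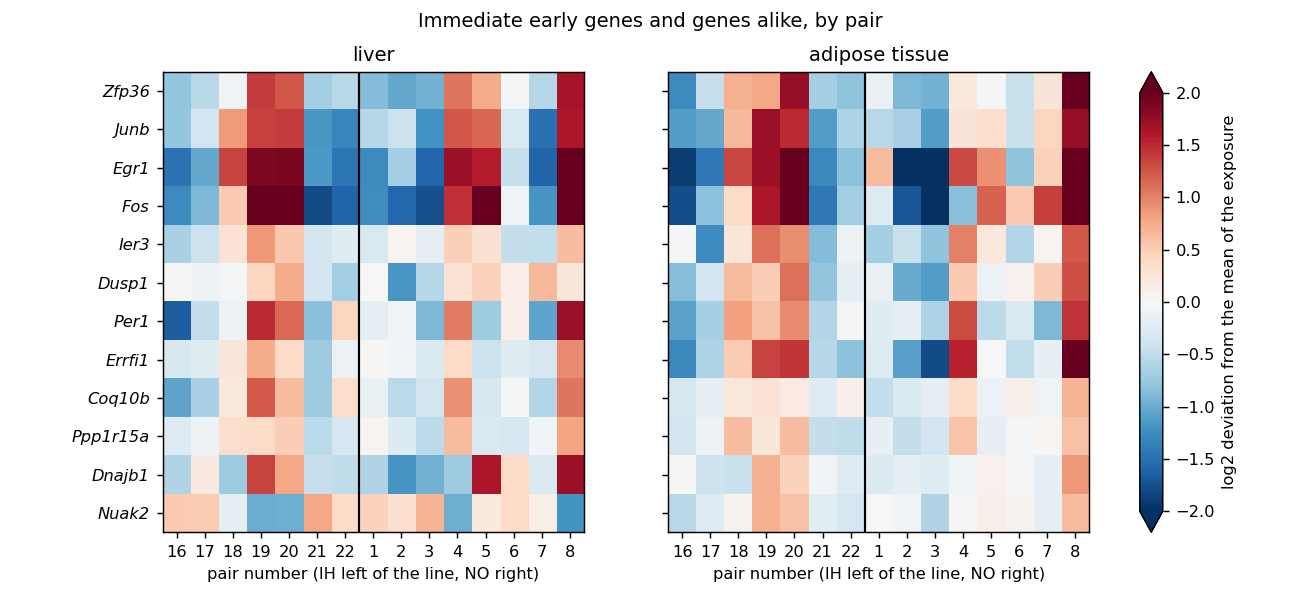
Log2 deviation from the mean of the exposure in liver and in adipose tissue. Rows are Zfp36, Junb, Egr1, Fos, Ier3, Dusp1, Per1, Errfi1, Coq10b, Ppp1r15a, Dnajb1 and Nuak2, the last of which ran opposite to Zfp36 in liver. Pairs are in columns with IH left of NO, and colours are capped at 2 in either direction. Pairs 19, 20, 4 and 8 are high in most rows of both panels. Over the 12 listed immediate early genes, not all of which are shown, their mean deviations were 0.84 to 1.06 in liver and 0.13 to 1.22 in adipose tissue.

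Heat shock genes, which encode chaperones, had a median r of 0.17, with 2 of 12 at a permutation p of at most 0.01 (16.7%). Dnajb1, the co-chaperone of HSP70, was called (r = 0.775, permutation p = 0.00039, adjusted p = 0.0432, rho = 0.7, permutation p = 0.00246, and 0.756 without the 2 farthest pairs). It reached 11.82 in IH and 12.81 in NO livers, against medians of 10.01 and 10.64, and IH pairs 19 and 20 and NO pair 8 were high in both tissues. Hspe1, the mitochondrial co-chaperonin, had 0.758 without passing (adjusted permutation p = 0.16). Chac1, a glutathione-degrading target of ATF4, had 0.808 (permutation p = 0.00061, adjusted p = 0.0545), while 1 of the 10 ATF4 targets tested had a permutation p of at most 0.01.

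Both genes that correlated negatively lie on chromosome 1, and the permutation test called 0 without pair 8, 16 or 17 (33, 47 and 31 negative genes at an unadjusted p of at most 0.01). Nuak2, a kinase of the AMPK family, had 8.31, 9.67 and 10.08 in IH and 8.13, 9.59 and 10.00 in NO livers, and 8.19, 8.51 and 9.46 in IH and 7.65, 8.27 and 8.87 in NO adipose tissue. IH pairs 19 and 20 and NO pair 8 were among the lowest in liver and the highest in adipose tissue, the same pairs that were high for Zfp36. The deviations of Nuak2 correlated with those of Zfp36 at -0.913 in liver and at 0.867 in adipose tissue. Its r between tissues was -0.835 (permutation p = 0.00032, adjusted p = 0.038) and its rho -0.829 (permutation p = 0.0009), with -0.948 in IH, -0.709 in NO and -0.713 without the 2 farthest pairs. Gpr1, a receptor of the adipokine chemerin, varied little, from 7.67 to 8.10 in IH and 7.59 to 8.17 in NO livers and from 7.03 to 7.79 in IH and 7.24 to 7.78 in NO adipose tissue. Its r was -0.814 (permutation p = 0.00032, adjusted p = 0.038, rho = -0.843, permutation p = 0.00021, and -0.807 without the 2 farthest pairs). The next 8 genes with a negative r did not pass: Acaa1b, Pbld1, Zfp280d, Eif4ebp2, Utp11, Anapc2, Abcf2 and H2bc11 had r from -0.778 to -0.617 and adjusted permutation p from 0.0542 to 0.119. With 39 negative genes at the wider threshold against a shuffled range of 11 to 73, the negative side did not stand apart from shuffled pairings.

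Genes of circulating and resident immune cells were described next. S100a8 and S100a9, which together form calprotectin, the main cytosolic protein of neutrophils, had pair scores that correlated at 0.987. S100a8 had 7.35, 8.73 and 9.85 in IH and 7.16, 9.80 and 11.36 in NO livers, and 8.42, 9.40 and 10.86 in IH and 7.93, 9.63 and 11.79 in NO adipose tissue. IH pair 18 and NO pairs 2 and 5 were high in both tissues and NO pair 7 lowest in both. Its r was 0.871 (permutation p = 0.00018, adjusted p = 0.0277) and its rho 0.907 (permutation p = 6e-05), with 0.902 in IH, 0.861 in NO and 0.8 without the 2 farthest pairs. S100a9 had 0.818 without passing (permutation p = 0.00108, adjusted p = 0.077). Lcn2, the third neutrophil gene tested, which hepatocytes also make, had -0.284, and 9 of the 12 listed neutrophil genes were not detected in both tissues.

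All 11 macrophage genes tested had a positive r, with a median of 0.48 (0.054 over all genes), but 1 of 11 had a permutation p of at most 0.01 (9.09%) and none was called. C1qa, a chain of complement C1q, had the highest (r = 0.766, permutation p = 0.00439, adjusted p = 0.157), with C1qb at 0.655 and the lysozyme Lyz2 at 0.645. The mean deviation of the 11 genes was 0.53 in liver and 0.72 in adipose tissue in IH pair 18, and 0.62 and 0.52 in NO pair 2, and IH pair 19 had -0.30 and -0.75. NO pairs 1, 5 and 6 and IH pair 21 differed in sign between the tissues. The widest such differences were in NO pair 1 (0.16 and -0.50) and NO pair 5 (-0.21 and 0.56). Without pairs 4, 16 and 19 the median r was 0.418, with 9 of 11 above 0 and 0 of 11 at a permutation p of at most 0.01. Of 4 globin and erythroid genes tested, Hbb-bt alone was called (r = 0.839, permutation p = 0.00019, adjusted p = 0.0277, rho = 0.839, permutation p = 0.00029, and 0.85 without the 2 farthest pairs). It had 7.61, 8.41 and 10.76 in IH and 7.83, 9.56 and 11.20 in NO livers, and 7.05, 7.44 and 9.19 in IH and 8.27, 10.45 and 11.77 in NO adipose tissue. Hba-a1 (r = 0.336) and Hbb-b2 (r = 0.385) did not pass, and the beta globin copies may share signal.

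G0s2, an inhibitor of the adipose triglyceride lipase that feeding induces, had 8.18, 10.30 and 11.25 in IH and 7.38, 10.30 and 12.03 in NO livers, and 9.73, 12.50 and 13.07 in IH and 11.37, 12.77 and 13.47 in NO adipose tissue. IH pair 19 and NO pair 4 were lowest in their groups in both tissues. Its r was 0.847 (permutation p = 3e-05, adjusted p = 0.018) and its rho 0.814 (permutation p = 0.00028), with 0.897 in IH, 0.942 in NO and 0.802 without the 2 farthest pairs. These are pairs whose adipose arrays read epididymis genes, and without them and pair 16 the r of G0s2 was 0.849. Among 12 lipogenic genes 10 had a positive r (median 0.48) and 2 a permutation p of at most 0.01 (16.7%): Acss2, which makes cytosolic acetyl-CoA from acetate (r = 0.763, adjusted p = 0.0901), and Thrsp, an activator of fatty acid synthesis (r = 0.714, adjusted p = 0.185), neither called. Without the 2 farthest pairs the r of Thrsp was 0.299.

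Bcl6, a repressor that growth hormone lowers and fasting raises in liver, had an r of 0.773 (permutation p = 0.00176, adjusted p = 0.0975, rho = 0.814, permutation p = 0.00067, and 0.737 without the 2 farthest pairs). It was among the highest in IH pair 21 and NO pairs 1, 5, 6 and 7, the pairs in which Cish was low, and the pair scores of Bcl6 and Cish correlated at -0.755. Growth hormone is released in pulses in male mice, and its level was not measured here. The growth hormone and IGF list as a whole did not covary: 4 of 9 genes tested had a positive r (median -0.124). Cish alone of them had a permutation p of at most 0.01 (11.1%, against 3.58% of all genes), and Igf1 (-0.177) and Socs2 (-0.165) had a negative r. Mrap, the accessory protein of the corticotropin receptor, was called (r = 0.881, permutation p = 0.00023, adjusted p = 0.0306, rho = 0.879, permutation p = 0.00012, and 0.862 without the 2 farthest pairs). So was App, the amyloid precursor protein (r = 0.865, permutation p = 0.0004, adjusted p = 0.0435, rho = 0.782, permutation p = 0.00098, and 0.851 without the 2 farthest pairs). Gstm2, a mu class glutathione transferase, was high in IH pairs 19 and 20 and NO pair 4 in both tissues (r = 0.849, permutation p = 0.00012, adjusted p = 0.0257, rho = 0.821, permutation p = 0.00045, and 0.763 without the 2 farthest pairs). Further probes of Gstm2 gave 0.831 and 0.728, and its close copy Gstm1 had 0.791 (adjusted p = 0.0835), whose probes may share signal.

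The study asked about liver mitochondria, and called genes with a mitochondrial product are named here singly. The share of such genes over all genes tested was not counted, so no excess can be read from them. Besides Lars2, Tomm22, Rpusd4, Tmem14c, Timmdc1 and Coq10b, the called set held Tfb1m, which methylates the mitochondrial ribosomal RNA (r = 0.897, permutation p = 9e-05, adjusted p = 0.0224, rho = 0.875, permutation p = 0.00013, and 0.781 without the 2 farthest pairs). It also held Mrps27, a protein of the mitochondrial ribosome (r = 0.815, permutation p = 0.00044, adjusted p = 0.0446, rho = 0.714, permutation p = 0.00579, and 0.714 without the 2 farthest pairs). Mff, the fission receptor of the outer membrane, had an r of 0.855 (permutation p = 0.00013, adjusted p = 0.0259, rho = 0.754, permutation p = 0.00103, and 0.829 without the 2 farthest pairs), while the other probe of Mff had 0.023 (permutation p = 0.953). In the oxidative phosphorylation list the share was near the background: of 36 genes tested 26 had a positive r (median 0.162), and 1, the cytochrome c1 gene Cyc1 (r = 0.678, adjusted permutation p = 0.0846), had a permutation p of at most 0.01 (2.78%, against 3.58% of all genes).

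Without pairs 4, 16 and 19 the number of genes with a positive r at a permutation p of at most 0.01 was 5 of 12 for the MHC list, 3 of 14 for clock genes, 3 of 15 for glucocorticoid targets, 2 of 12 for heat shock genes, 3 of 12 for lipogenic genes and 2 of 36 for oxidative phosphorylation. It was 1 of 10 for ATF4 targets, 2 of 3 for neutrophil genes, 1 of 4 for globin and erythroid genes, 1 of 23 for ribosomal proteins and 0 of 26 for the proteasome.

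Several other lists lay near the background as well. The 15 fatty acid oxidation genes had a median r of -0.098, the 23 ribosomal protein genes -0.118, the 9 acute phase genes -0.091 and the 26 proteasome genes 0.015, with 0, 1, 0 and 2 genes at a positive permutation p of at most 0.01. The 12 hypoxia target genes had a median of 0.16 with 0 at that threshold, the 15 interferon response genes 0.072 with 0, and the 14 cholesterol synthesis genes 0.15 with 0. Of markers of other tissues, none of the listed B cell, epididymis or skeletal muscle genes and 2 of the pancreatic genes were detected in both tissues. The 4 hepatocyte genes detected in both tissues had a median of -0.037 and the 2 adipocyte genes 0.024.

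**Figure D5:**
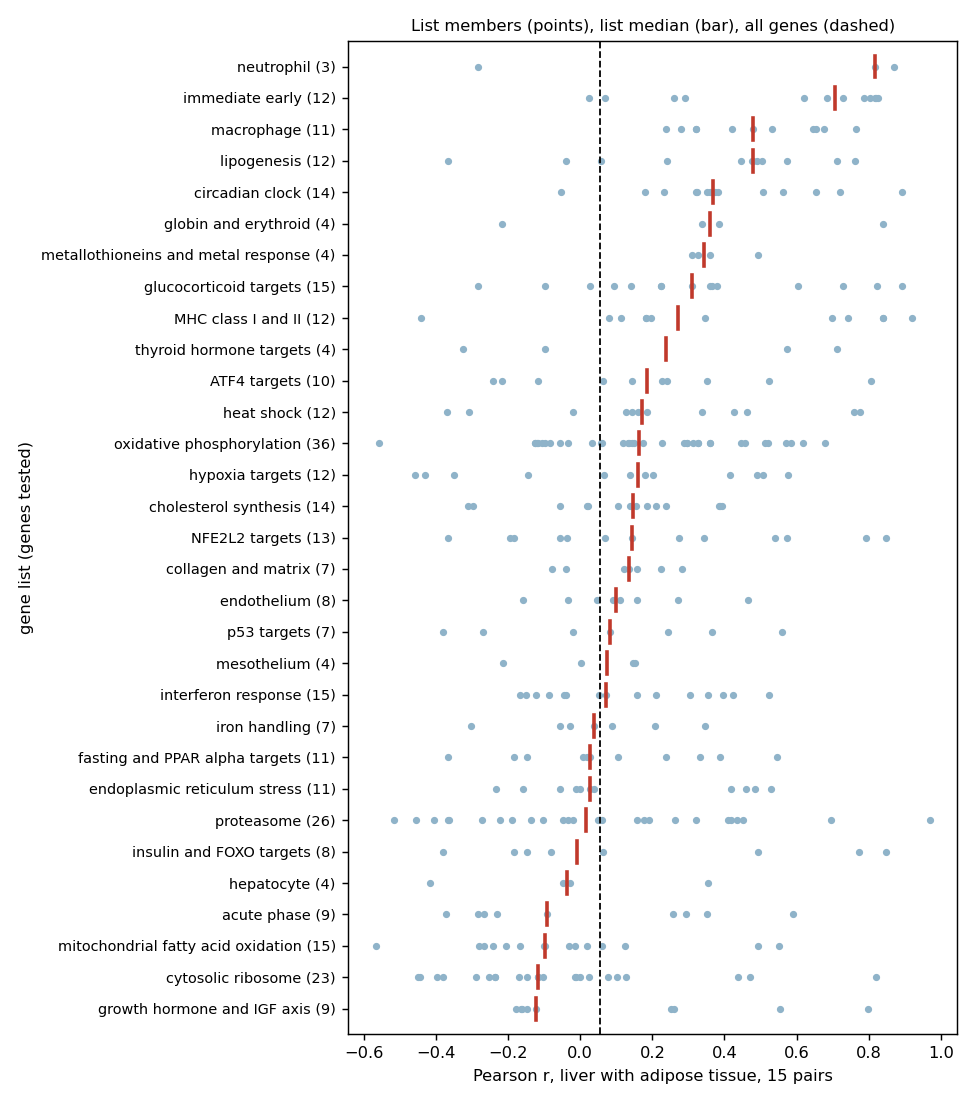
Pearson's r between liver and adipose deviations for the members of each gene list (points), with the list median (bar) and the median of all 5986 genes (dashed line, 0.054). The immediate early, macrophage, lipogenesis and clock lists have medians from 0.37 to 0.71, and the ribosome, fatty acid oxidation and acute phase lists lie below 0.

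The difference between IH and NO, which centring had removed, was tested apart with limma over the same 5986 genes. In both tissues it cannot be told apart from a difference between chips. In liver 23 genes rose (0.384%) and 34 fell (0.568%) in IH, and in adipose tissue 1011 rose (16.9%) and 986 fell (16.5%). Without pairs 4, 16 and 19 the totals were 9 in liver and 1786 in adipose tissue. The liver count rested on few arrays, at 4 genes without IH 20 and 116 without NO 1, and 3 with the chip as a random block. In adipose tissue 771 genes rose and 903 fell with the chip as a random block. Of the 57 covarying genes limma called 0 in liver, where 4 had an unadjusted p under 0.05. In adipose tissue 1 rose (1.75% of 57), the diacylglycerol kinase Dgkz (log2 0.47 ± 0.10, SE, adjusted p = 0.00157), and 8 fell (14%): Ccng2, Gm14325, H2-Aa, Hbb-bt, Huwe1, Mff, Prkag2 and Rps3a1. The share that fell was thus close to that of all genes (16.5%), while the share that rose was below that of all genes (16.9%). These differences in share were not tested. Huwe1, a large ubiquitin ligase on the X chromosome, fell by 2.00 ± 0.08 on the log2 scale (SE, adjusted p = 1.43e-11), and Rps3a1 fell by 2.53 ± 0.25 (adjusted p = 7.69e-07). H2-Aa fell by 1.80 ± 0.51 (adjusted p = 0.0127) and Mff fell by 1.25 ± 0.17 (adjusted p = 2.29e-05). Other class II genes did not fall with H2-Aa in adipose tissue. H2-Ab1 rose by 1.03 ± 0.27 (adjusted p = 0.00878) and Cd74 by 0.94 ± 0.32 (adjusted p = 0.0323), while H2-Eb1 did not pass (0.31 ± 0.62, adjusted p = 0.739). Neither Nuak2 nor Gpr1 changed past the threshold in either tissue.

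Whether the relation itself differed under IH was tested with an interaction term. At an unadjusted p under 0.05, 330 genes (5.51%) had a slope of adipose on liver deviation that differed between IH and NO pairs, and none passed the adjusted threshold in this linear model.

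Called genes were also compared with each other by their place in the genome. Of 26 pairs of called genes within 5 Mb, 2 had pair scores correlated at an absolute value of 0.7 or more (7.69%, median 0.478). Of 67 pairs farther apart on the same chromosome 8 did (11.9%, median 0.351), and of 1503 pairs on different chromosomes 41 did (2.73%, median 0.239). Gene order was taken from RefSeq annotation. The genes most like Zfp36 over the 15 pairs were Junb (0.961), Egr1 (0.957), Fos (0.942), Errfi1 (0.923) and Jun (0.916). Those most like H2-Eb1 were H2-Q7 (0.933), H2-Aa (0.931), Coa3 (0.914), Sc5d (0.834) and Hint2 (0.834). Of these, Coa3, Sc5d and Hint2 are not MHC genes, and Coa3 had an r between tissues of -0.181. Arrays of 1 sample share their depth and quality, so these values are descriptions.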

How the data were processed

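The authors read the Illumina arrays in GenomeStudio (version not given in the sources used here) and deposited 1 intensity and 1 detection p-value per probe and array. The deposited intensity values ran from 101.33 to 34877, and sorted arrays differed by at most 1.05%, so all arrays shared 1 distribution, and log2 values were taken without further scaling. The authors' processed intensity, normalised within each tissue, was an alternative. The number of arrays limits the precision. The labels name separate samples, and p-values measure only the spread between them.

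Of 25697 probes, 23978 had 1 gene symbol and 1719 none. Probes with a detection p under 0.01 on at least 7 liver and 8 adipose arrays were kept (8130), and the brightest stood for its gene. Detected probes numbered 8712 to 9293 in IH and 8359 to 9158 in NO livers, and 10775 to 12340 in IH and 10261 to 11932 in NO adipose tissue. Correlations were tested two-sided with 100000 shuffles of the pairing within exposure, where 1e-05 is the smallest p they can give. IH was set against NO in each tissue with limma 3.58.1 (R 4.3.3; lmFit, eBayes), and the rest was done in Python 3.11.15 (numpy 2.4.6, scipy 1.17.1). The scripts were tested on simulated data. A pair score is the mean of a gene's standardised liver and adipose deviations, and scores were joined by average linkage at a correlation of 0.7.

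Alternatives were another background correction (neqc, offset 16), the processed values, other filters, the mean of a gene's probes, rank correlation, regression, the chip as a block, detected probes as a covariate, each exposure alone, each pair left out and a replicate block. Adipose array IH 15 had no liver partner and was left out.

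The members and lists were chosen with earlier results of these data known. The genes named were the 20 called genes with the highest r, the 10 negative genes with the smallest p, the 3 members of each list with the smallest p, and the 5 genes most like a given one. Other genes were named after their values had been seen, among them Fos, Egr1, Jun, Aldh1a7, App, G0s2, Mrap, Coq10b, C2, Casp9, H2-Q7, H2-T23, H2-Ab1, Cd74, Mff, Tfb1m, Mrps27, H2-K1, H2-D1, Lcn2, Huwe1 and Dgkz.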

Additional observations from a re-analysis of the deposited data

Results flagged for a closer look

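In 324 groups of 7 IH or 8 NO samples (81 named genes in liver and in adipose tissue), 19 held 1 sample far from the others relative to the range of its group. Chance flags about 1 in 20 groups. All values are log2 intensities.

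In both tissues of the same pair, Brat1 was far below in IH pair 16, at 7.01 in liver and 6.89 in adipose tissue, against next values of 8.22 and 8.19. Atp6v1d was far below in NO pair 1, at 8.62 in liver and 9.01 in adipose tissue, against 9.58 and 9.91.

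In NO pair 2, H2-Eb1 was far below in adipose tissue (7.02, next 9.23) and C2 in liver (11.89, next 12.22). Aldh1a7 was far below in liver in IH pair 18 (6.89, next 9.82) and NO pair 2 (7.00, next 10.20). The class I gene H2-T23 was low in the liver of IH pair 20 (10.13, next 11.06).

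In NO pair 8 the adipose values of Zfp36 (13.09, next 11.34) and Dnajb1 (11.79, next 11.01) were far above. Gstm2 was high in the adipose tissue of NO pair 4 (13.76, next 13.12), and Csrp1 low in that of NO pair 5 (7.19, next 10.80).

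In adipose array IH 19, which read epididymis genes, Hba-a1 was at 12.79 (next 14.41) and Mrps27 at 7.12 (next 7.45). Mrps27 was high in adipose array NO 2 (7.68, next 7.44) and Eif4ebp2 in adipose array IH 17 (9.91, next 8.94). H2bc11 was low in the livers of IH pair 19 (11.04, next 11.58) and NO pair 3 (11.34, next 11.66).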

How the results depend on the processing

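Beside the 57 positive and 2 negative calls, Spearman correlation called 28 (25 of them among the 57) and 1, detection on all 30 arrays 23 (all 23 among the 57) and 0 (27 negative at an unadjusted permutation p of at most 0.01), no detection filter 23 (20) and 1, and detected probes as a covariate 24 (19) and 1. The permutation test called 0 and 0 with the chip of each tissue as a block (181 and 10 at an unadjusted p of at most 0.01), 0 and 0 in the NO pairs alone (125 and 36) and 0 and 0 in the IH pairs alone (92 and 20). These settings allow fewer pairings, and their smallest unadjusted permutation p was 0.00011, 7.44e-05 and 0.000198. Calls after adjustment were thus hard to reach in them. Without pairs 4, 16 and 19, a setting chosen after the data were seen, it called 16 (9) and 1. Regression, neqc, the processed values and the mean of the probes gave 57 to 80 positive and 2 or 3 negative calls. At an unadjusted p of at most 0.01 the 39 negative genes became 88 without a filter, 20 with the covariate and 62 without pairs 4, 16 and 19. With 1 pair left out, positive calls were 33 (without pair 4) to 57 and negative calls 0 (without pair 8, 16 or 17) to 4 (without pair 7 or 20), and the unadjusted counts were 181 to 241 positive and 28 to 63 negative.

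The 57 IH genes of liver became 3 with the chip as a random block, 9 without pairs 4, 16 and 19, and 0 with the covariate in limma (396 up and 535 down at an unadjusted p under 0.05). With 1 pair left out they numbered 4 (without 20) to 116 (without 1), and the adipose count of 1997 became 1733 to 2079. The r of Cd74 was -0.0056 (without pair 4) to 0.3721 (without pair 2). The cause of these shifts was not tested.

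The replicate block gave 109 genes in liver and 2142 in adipose tissue (consensus correlation 0.0488). The labels do not say what a number marks. The pairs were formed from the titles alone. Deviations of the same number correlated over 0.1 in 9 of 15 pairs, and best with their own number in 8 of 15. The 214 positive genes at an unadjusted permutation p of at most 0.01 also depend on this pairing. None of the 100 shuffled pairings reached that count, and the highest gave 96. Whether a shared number marks the same animal was not tested.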
